A study of Mus musculus with 40 samples.

Results

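Imprinted genes, 10 in number and well described in the mouse, were followed through oocytes that lack the histone methyltransferase G9A or both G9A and its partner GLP. They are Grb10, Igf2r, Cdkn1c, Peg3, Plagl1, Snrpn, Impact, Mest, Nnat and Kcnq1ot1. A gene was taken from the RNA table where a transcript locus carried its name, overlapped it and lay on its strand. By this rule 7 of the 10 genes had a locus, 1 each, out of 38540 loci in all, and 15023 loci are named after a gene on their own strand. The other genes are Impact, Nnat and Kcnq1ot1. For Impact and Nnat this is because the table gives each locus the name of a single overlapping gene. Impact and Nnat lie at loci named 7SK and Blcap and were found by position, a match chosen after the tables were seen, and Kcnq1ot1 has no locus on its strand.

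The oocytes were at the germinal vesicle stage, fully grown and arrested before the first meiotic division, and came from ovaries of 22- to 25-day-old mice, with 100 to 200 oocytes in a sample. Low-input RNA-seq was made from 4 groups: 3 control libraries with the title prefix GKAO, 3 G9a cKO libraries (conditional knockout of G9a, the gene Ehmt2) with the same prefix, 3 control libraries with the prefix GKAQ, and 2 G9a-Glp cDKO libraries (conditional knockout of both G9a and Glp, the genes Ehmt2 and Ehmt1) with the prefix GKAQ. Each mutant was compared with the controls of its own prefix. H3K9me2, the histone mark placed by G9A and GLP, was measured by native chromatin immunoprecipitation in 2 control, 2 G9a cKO and 2 cDKO libraries. The driver of the deletions, the strain and the alleles of the controls, which the file headers mark WT, are not given in the sources used here, nor is how many animals gave each pool. The p-values therefore treat libraries, not animals, as the units.

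An imprinted gene is expressed from the copy of 1 parent only, because DNA methylation laid down in the egg or the sperm marks a control region near it. Most of the genes here are controlled by a region that is methylated in the egg, and in growing oocytes this methylation is placed where transcription from a promoter further upstream runs across the region. These oocytes were taken before fertilisation, so their RNA shows which transcripts are made before the imprint is read in the embryo.

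RNA levels are in RPM, reads scaled to the size of the library, and fold changes are differences of log2 RPM with the standard error (SE) of limma's moderated linear model, fitted to all 38540 loci. In this fit the moderation set each SE almost wholly from loci of similar level, and little from the locus's own libraries. For Dppa3 the log2 values of the cDKO libraries had a standard deviation of 0.37, beside an SE of 0.08 in cDKO. For Cdkn1c those of the GKAO controls had 0.019, beside an SE of 0.33 in G9a cKO. The p-values thus set a difference against the usual spread at that level. A locus is said to have risen or fallen where the p-value, adjusted by Benjamini-Hochberg over all loci, was under 0.05. The libraries were scaled to totals of 1458868 to 2399680 reads, so 1 read is worth 0.417 to 0.685 RPM, and levels of a few RPM rest on few reads. Of 14 oocyte markers with a locus, 13 had a mean of at least 10 RPM, and their summed level was 19064 to 19970 RPM in GKAO controls, 20630 to 21557 in G9a cKO, 16910 to 17620 in GKAQ controls and 18053 to 18082 in cDKO. Of the 14, 3 passed the threshold in G9a cKO (all higher), 7 in cDKO (5 higher, 2 lower) and 5 between the control sets (4 lower in GKAQ, among them Zp2 at log2 −1.04 and Oosp1 at −0.90, and Gdf9 higher). Of all loci 1.79%, 6.34% and 3.87% passed in the same order. In a fit of only loci with a mean of at least 1 RPM, 4.45%, 14.8% and 10.3% did. Some markers of the oocyte itself thus differ between the control sets, as do the genes given below. Markers of theca or stroma cells summed to at most 5.00 RPM (8 loci, 4 of them without a read in any library) and those of blood cells to at most 0.546 RPM (6 loci, 5 without a read). All 16 granulosa cell markers summed to 191 to 201 RPM in GKAO controls, 143 to 175 in G9a cKO, 142 to 172 in GKAQ controls and 130 to 154 in cDKO. Most of this came from Nr5a2 and Cyp19a1, and without that pair, left out after the values were seen, the sums were 30.4 to 34.3, 29.2 to 35.0, 21.4 to 37.1 and 39.3 to 45.6 RPM in the same order, so the direction in cDKO depends on them. No granulosa cell marker passed in G9a cKO, Fshr and Inha rose in cDKO, and between the control sets Inha and Nr5a2 were lower and Bex4 higher in GKAQ. Endothelial markers, 3 loci, summed to 105 to 180 RPM in controls and 135 to 163 RPM in the mutants, with Kdr higher in cDKO and Tek lower in GKAQ than in GKAO controls. The part of other cells, and of the state of the oocytes, in the results below was not tested, and in such pools fewer cells of a type cannot be told apart from less RNA per cell. The library labelled G9a cKO replicate 2 lay within the range of the GKAO controls for Ehmt2, the gene it is labelled as lacking, so G9a cKO calls are also given with that library left out. Ehmt2 had 5.27 to 8.23 RPM in GKAO controls and 0.942 to 6.01 in G9a cKO (log2 −1.55, adjusted p = 0.0971), and 5.03 to 12.5 RPM in GKAQ controls and 2.85 to 2.96 in cDKO (log2 −1.45, adjusted p = 0.121). Ehmt1 had 68.3 to 90.5 RPM in GKAQ controls and 17.7 to 21.3 in cDKO (log2 −2.06, adjusted p = 1.09e-21).

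The start sites of the 3 genes that changed in a mutant show how differently these promoters are built. Each sequence below is from RefSeq (GRCm38.p6) and runs 5′ to 3′ on the gene's strand, the minus strand in each case, from 250 bases before an annotated start to 50 bases after it. Capitals mark CG dinucleotides, the places that DNA methylation can occupy. The first Grb10 start is at the 5′ end of the oocyte locus and the second lies inside the gene. The first Snrpn window is at the 5′ end of the oocyte locus, and the second lies at the downstream start of the gene.
Grb10, chr11:12037371-12037670: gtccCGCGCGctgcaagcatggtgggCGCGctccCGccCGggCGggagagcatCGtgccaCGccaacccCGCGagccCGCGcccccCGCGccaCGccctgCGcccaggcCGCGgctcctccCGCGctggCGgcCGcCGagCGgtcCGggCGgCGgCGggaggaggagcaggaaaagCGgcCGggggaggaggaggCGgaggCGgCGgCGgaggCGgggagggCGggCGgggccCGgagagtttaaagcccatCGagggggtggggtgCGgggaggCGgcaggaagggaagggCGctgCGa
Grb10, chr11:12027922-12028221: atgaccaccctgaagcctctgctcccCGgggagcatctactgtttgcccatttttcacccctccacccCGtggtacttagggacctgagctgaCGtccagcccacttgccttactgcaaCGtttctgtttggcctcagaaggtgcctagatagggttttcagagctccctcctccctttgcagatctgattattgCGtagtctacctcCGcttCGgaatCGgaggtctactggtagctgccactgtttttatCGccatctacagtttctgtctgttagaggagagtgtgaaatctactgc
Igf2r, chr17:12769657-12769956: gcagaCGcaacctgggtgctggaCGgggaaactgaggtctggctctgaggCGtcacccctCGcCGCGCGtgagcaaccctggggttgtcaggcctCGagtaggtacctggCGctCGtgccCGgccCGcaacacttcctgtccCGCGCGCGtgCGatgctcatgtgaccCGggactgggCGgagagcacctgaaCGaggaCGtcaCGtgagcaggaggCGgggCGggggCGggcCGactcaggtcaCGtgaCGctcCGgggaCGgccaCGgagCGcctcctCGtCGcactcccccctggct
Snrpn, chr7:60140176-60140475: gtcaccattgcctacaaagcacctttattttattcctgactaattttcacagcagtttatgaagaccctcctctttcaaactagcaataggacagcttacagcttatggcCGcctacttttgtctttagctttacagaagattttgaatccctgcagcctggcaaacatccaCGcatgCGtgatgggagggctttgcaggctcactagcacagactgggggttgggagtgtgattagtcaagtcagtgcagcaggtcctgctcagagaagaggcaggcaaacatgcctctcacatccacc
Snrpn, chr7:60005150-60005449: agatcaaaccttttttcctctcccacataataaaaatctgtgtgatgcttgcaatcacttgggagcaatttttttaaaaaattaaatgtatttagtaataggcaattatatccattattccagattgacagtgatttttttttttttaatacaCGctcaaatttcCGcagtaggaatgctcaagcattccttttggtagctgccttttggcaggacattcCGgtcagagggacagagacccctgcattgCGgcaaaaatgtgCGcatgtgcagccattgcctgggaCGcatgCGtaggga

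The capitals crowd the first Grb10 window, with 45 CG dinucleotides, and the Igf2r window, with 34, and are fewer in the others. The second Grb10 window holds 9 and the Snrpn windows hold 3 upstream and 7 downstream, against a median of 7 over 32851 promoters of the same length. TGCCGC, the hexamer bound by ZFP57, a zinc finger protein that protects imprints in the embryo, was searched on both strands. It occurs once in the first Grb10 window and once in the downstream Snrpn window, is not in the other 3 windows, and is held by 11.6% of the promoters. These matches describe the letters only.

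In the oocyte the loci of Peg3 and Plagl1 begin far upstream of the RefSeq start of the gene. The Peg3 locus began 21.37 kb upstream of the only RefSeq start of the gene and ran across it. The Plagl1 locus began 30.32 kb upstream of its start and also ran across it. At Snrpn the locus began 44 bases upstream of an annotated upstream start and ran over 157.78 kb. It crossed an annotated start 92.29 kb from its 5′ end and the downstream start 135.07 kb from that end. The Mest locus began 1.27 kb upstream of 1 annotated start, and 5.81 kb and 5.82 kb upstream of a further pair. By contrast, the Grb10 locus began 19 bases inside its first start and crossed the second 9.43 kb further on, and the Igf2r locus began 220 bases upstream of its start. Airn, the noncoding RNA that silences Igf2r on the paternal copy, begins inside Igf2r on the other strand, and a locus began at exactly the RefSeq Airn start. These positions are those of the deposited loci, and no reads were available here to place the starts more finely.

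**Figure D1:**
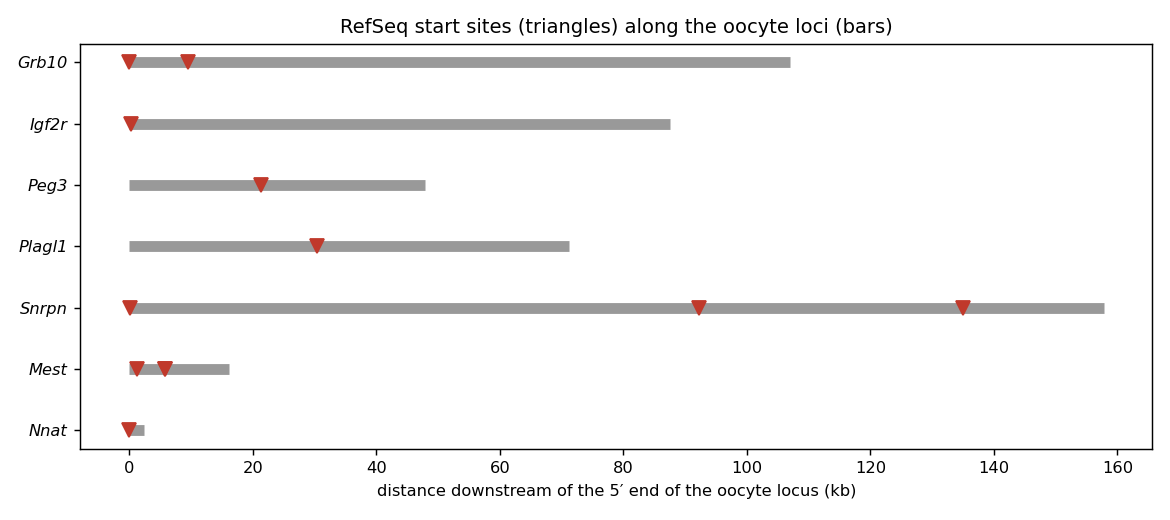
Position of RefSeq start sites (triangles) along the oocyte loci of 7 genes (bars), as distance in kb from the 5′ end of each locus in the direction of transcription. Peg3 and Plagl1 carry a single start, 21.37 kb and 30.32 kb into the locus, and the downstream Snrpn start lies 135.07 kb in, and 1 further Snrpn start, at −309.91 kb, is not drawn, while Cdkn1c and Impact were not matched to a start.

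Grb10 encodes an adaptor protein that restrains signalling by the insulin and insulin-like growth factor receptors. Its locus (TCONS_00017833, ENSMUSG00000020176) spans chr11:11930507-12037401 on the minus strand. The GKAO controls had 38.4, 52.4 and 29.9 RPM, the G9a cKO libraries 73.5, 75.4 and 53.2 RPM, the GKAQ controls 23.3, 17.1 and 18.2 RPM and the cDKO libraries 67.8 and 41.5 RPM. Every mutant library lay above every control of its own prefix, by a narrow margin in G9a cKO, and the GKAQ controls lay below all other libraries. Grb10 rose 2.74-fold in cDKO (log2 1.45, SE 0.23, adjusted p = 7.58e-08) and 1.70-fold in G9a cKO (log2 0.76, SE 0.21, adjusted p = 0.0188). Between the controls themselves, the GKAQ libraries were lower (log2 −1.02, SE 0.21, adjusted p = 8.54e-05). Set against the GKAO controls, a comparison added after the data were seen, the cDKO libraries differed by log2 0.44 (adjusted p = 0.35), and their 2 values overlap with those controls. The difference between the Grb10 effects in cDKO and G9a cKO was 0.69 on the log2 scale (95% interval 0.08 to 1.30, adjusted p = 0.169) and did not pass the threshold. The call in G9a cKO was lost without GKAO control replicate 1 (adjusted p = 0.063) or 3 (0.281), without G9a cKO replicate 1 (0.158) or with the library labelled G9a cKO replicate 2 left out (log2 0.67, adjusted p = 0.128), and also under log2(RPM + 1), precision weights and moderation without a trend, with adjusted p-values up to 0.401.

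Igf2r encodes the receptor that takes up insulin-like growth factor 2 for degradation. The locus (TCONS_00047083, ENSMUSG00000023830) spans chr17:12682389-12769926 on the minus strand. It had 138, 132 and 110 RPM in GKAO controls, 147, 116 and 90.4 RPM in G9a cKO, 189, 186 and 178 RPM in GKAQ controls, and 127 and 107 RPM in cDKO. The GKAQ controls were the highest of all libraries and did not overlap with any other group, while the remaining groups overlapped with each other. Igf2r fell to 0.633 of the control level in cDKO (log2 −0.66, SE 0.14, adjusted p = 0.000217). The GKAQ controls were themselves higher than the GKAO controls (log2 0.54, SE 0.13, adjusted p = 0.00108), and against the GKAO controls the cDKO difference was −0.12 (adjusted p = 0.971). With all 6 controls pooled it was −0.39 (adjusted p = 0.119), and the call was also lost under log2(RPM + 1) (0.126) and without trend and robust moderation (0.181). In G9a cKO the log2 difference was −0.13 (95% interval −0.38 to 0.12, adjusted p = 0.473). Airn had 8.79 to 20.6 RPM in GKAO controls, 14.6 to 23.5 in G9a cKO, 20.1 to 24.2 in GKAQ controls and 12.0 to 19.6 in cDKO, with log2 differences of 0.35 in G9a cKO (adjusted p = 0.406) and −0.50 in cDKO (adjusted p = 0.565). Airn and Igf2r overlap on opposite strands, and whether the counting used the strand is not stated, so some reads may be shared.

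Snrpn encodes SmN, a core protein of the splicing machinery, and showed the steepest fall among the 7 genes in cDKO. The locus (TCONS_00094219, ENSMUSG00000000948) spans chr7:59982495-60140269 on the minus strand. Levels were 35.0, 28.3 and 25.2 RPM in GKAO controls, 28.0, 36.1 and 38.1 RPM in G9a cKO, 20.7, 19.2 and 17.7 RPM in GKAQ controls, and 9.11 and 7.71 RPM in cDKO. The cDKO libraries, with 16 and 13 reads, lay below all 6 controls, whereas G9a cKO overlapped with its controls. Snrpn fell to 0.437 of the control level in cDKO (log2 −1.19, SE 0.30, adjusted p = 0.00237), and the fall passed the threshold in 19 of 20 alternatives. It was lost (log2 −1.31, adjusted p = 0.139) with the number in the sample title as a block over all 11 libraries, a fit added after the data were seen in which the cDKO effect rests on 1 cDKO and 1 control library that share a number. Against the GKAO controls, added after the data were seen, the log2 difference was −1.80 (adjusted p = 1.69e-07). In G9a cKO the log2 difference was 0.21 (95% interval −0.31 to 0.73, adjusted p = 0.593). The difference between the 2 effects was −1.40 (SE 0.40, adjusted p = 0.0456), the only such difference past the threshold among the 7 genes, and it was lost in 11 of 17 alternatives (adjusted p up to 0.144), among them the fit leaving out the library labelled G9a cKO replicate 2 (0.0953). The GKAQ controls had lower levels than the GKAO controls without passing the threshold (log2 −0.61, SE 0.27, adjusted p = 0.284).

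**Figure D2:**
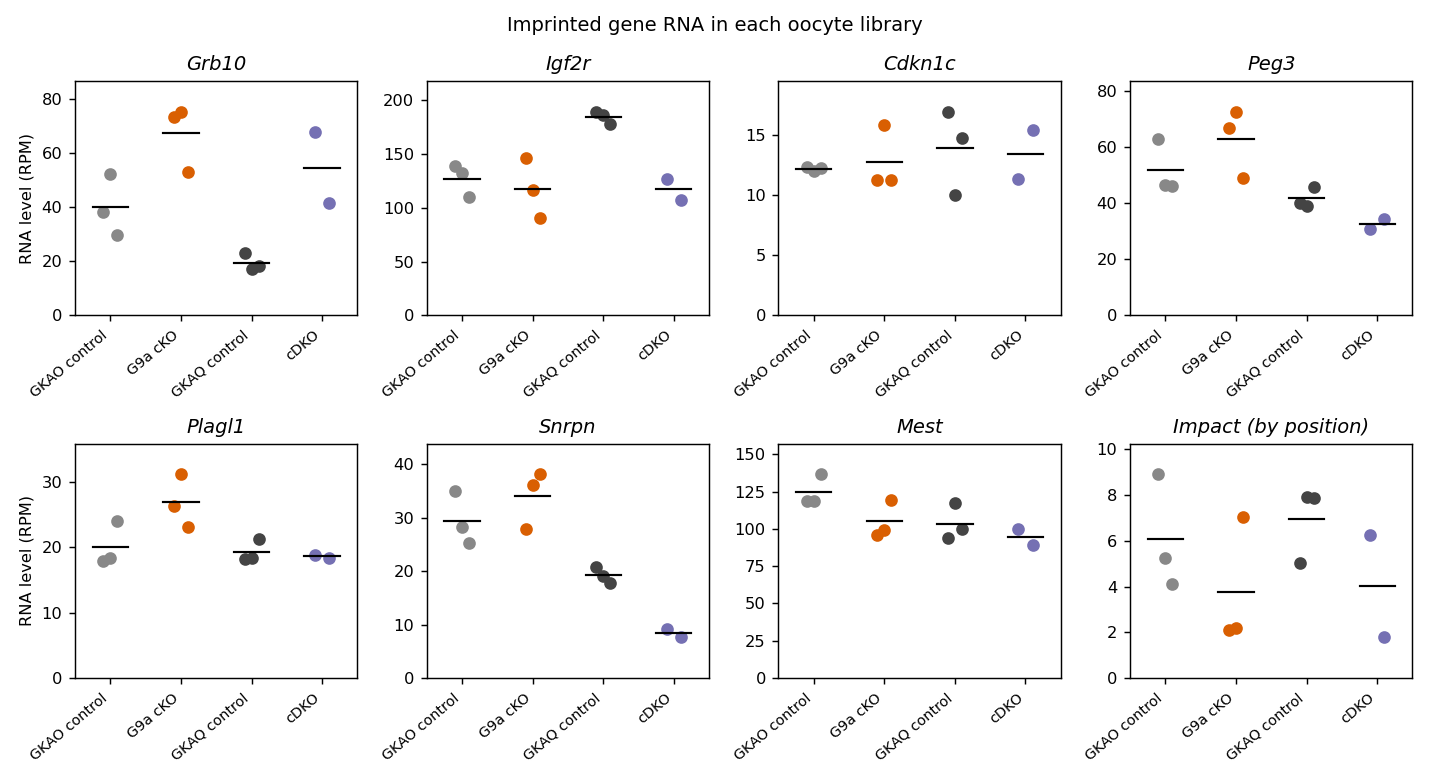
RNA level in RPM of 8 imprinted genes in each of the 11 oocyte libraries (points), with the mean of each group as a horizontal line. The Grb10 levels of the GKAQ controls (17.1 to 23.3 RPM) and the Igf2r levels of the same libraries (178 to 189 RPM) stand apart from all other groups, and the Snrpn levels of the cDKO libraries (7.71 and 9.11 RPM) are below every control.

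Peg3 and Plagl1 encode zinc finger transcription factors that restrain growth or act in cell death and cell cycle arrest. Peg3 (TCONS_00092785, ENSMUSG00000002265, chr7:6703892-6751793, minus strand) had 63.1, 46.6 and 46.3 RPM in GKAO controls, 66.8, 72.7 and 49.0 in G9a cKO, 40.2, 39.2 and 45.8 in GKAQ controls, and 30.7 and 34.4 in cDKO. Both cDKO libraries were below all 6 controls, and G9a cKO overlapped with its controls. The log2 difference was −0.36 in cDKO (SE 0.22, adjusted p = 0.483), which did not pass the threshold, and −0.66 against the GKAO controls, which did (adjusted p = 0.0321, a comparison added after the data were seen). In G9a cKO it was 0.27 (SE 0.19, adjusted p = 0.327). Plagl1 (TCONS_00008260, ENSMUSG00000019817, chr10:13060512-13131694, plus strand) had 17.8, 18.3 and 24.0 RPM in GKAO controls, 26.3, 31.1 and 23.1 in G9a cKO, 18.2, 18.3 and 21.2 in GKAQ controls, and 18.8 and 18.4 in cDKO. Its groups overlapped in both mutants, with log2 differences of 0.42 in G9a cKO (95% interval −0.10 to 0.95, adjusted p = 0.256) and −0.05 in cDKO (95% interval −0.64 to 0.54, adjusted p = 0.909). The difference between the effects in cDKO and G9a cKO was −0.63 for Peg3 (SE 0.29, adjusted p = 0.169) and −0.47 for Plagl1 (SE 0.40, adjusted p = 0.403).

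Cdkn1c encodes an inhibitor of cyclin-dependent kinases and is silenced on the paternal copy by the noncoding RNA Kcnq1ot1. The Cdkn1c locus (TCONS_00095902, ENSMUSG00000037664, chr7:143458279-143461050, minus strand) had 12.3, 12.0 and 12.3 RPM in GKAO controls, 11.3, 15.8 and 11.3 in G9a cKO, 17.0, 10.0 and 14.8 in GKAQ controls, and 11.4 and 15.4 in cDKO. All groups overlapped, and with 18 to 30 reads per library the 95% interval of the log2 difference was −0.60 to 0.70 in G9a cKO and −0.76 to 0.69 in cDKO. Kcnq1ot1 itself gives no value here: the locus over it, named Kcnq1, lies on the other strand, chr7:143106387-143427042, and had 45.8 to 70.5 RPM, with log2 differences of 0.00 in G9a cKO and 0.11 in cDKO (adjusted p = 0.992 and 0.721).

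Mest encodes a protein with the fold of the alpha/beta hydrolases. Its locus (TCONS_00084091, ENSMUSG00000051855, chr6:30732237-30748455, plus strand) had 119, 119 and 137 RPM in GKAO controls, 96.0, 99.4 and 120 in G9a cKO, 93.6, 118 and 99.6 in GKAQ controls, and 99.6 and 88.9 in cDKO. The mutants overlapped with their controls, with log2 differences of −0.25 in G9a cKO (95% interval −0.52 to 0.02, adjusted p = 0.23) and −0.13 in cDKO (95% interval −0.44 to 0.17, adjusted p = 0.588). A locus on the other strand with 63.4 to 96.7 RPM overlaps the 3′ end of Mest and may share reads with it.

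Impact encodes a regulator of translation that holds back the stress kinase GCN2, and Nnat encodes a small membrane protein of the endoplasmic reticulum. At the position of Impact (TCONS_00049444, chr18:12955697-12992948, plus strand) there were 13, 10 and 7 reads in GKAO controls, 5, 4 and 15 in G9a cKO, 8, 19 and 16 in GKAQ controls, and 11 and 3 in cDKO. The groups overlapped, and the log2 differences, −0.86 in G9a cKO (SE 0.50, adjusted p = 0.23) and −1.03 in cDKO (SE 0.56, adjusted p = 0.382), were not distinguishable from the spread at this depth. At the position of Nnat (TCONS_00058533, chr2:157560110-157562522, plus strand) there were 5 reads over all 11 libraries and at most 3 in any library, so no fold is given. Blcap, on the other strand across Nnat, had 49.4 to 71.2 RPM.

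Counted over the 7 genes, 1 passed the threshold in G9a cKO (Grb10, higher), where 1.79% of all loci did, 1.05% higher and 0.737% lower. In cDKO 3 of 7 passed (Grb10 higher, Igf2r and Snrpn lower), where 6.34% of all loci did, 4.32% higher and 2.02% lower. For the difference between the effects it was 1 of 7 (Snrpn), against 1.08% of loci, and between the controls 2 of 7 (Grb10 lower and Igf2r higher in GKAQ), against 3.87% of loci, 1.96% higher and 1.91% lower. The median log2 difference of the 7 genes was 0.21 in G9a cKO and −0.13 in cDKO, beside 0.01 and 0.05 over the 9091 loci with a mean of at least 10 RPM. Over all 38540 loci the medians were −0.31 and 0.20, at or near the −0.32 and 0.20 that loci without reads take from library depth. By ranges alone, the groups did not overlap in G9a cKO for 1 gene, higher (Grb10, as for 6.57% of all loci), and 0 lower (4.46%). In cDKO they did not overlap for 1 gene, higher (Grb10, 15.8%), and 3 lower (Igf2r, Peg3 and Snrpn, 8.14%). The GKAQ controls did not overlap with the GKAO controls for 1 gene, higher (Igf2r, 6.86%), and 4 lower (Grb10, Peg3, Snrpn and Mest, 5.87%). Both cDKO libraries were below all 6 controls for 2 of 7 genes (Peg3 and Snrpn), as for 3.58% of all loci, and for none were both above all 6, as for 10.3% of all loci. These shares cover loci of every level, and the 7 genes have more reads than most. A fit of only the 16918 loci with a mean of at least 1 RPM called 4.45% in G9a cKO and 14.8% in cDKO. It called 2% for the difference between the effects and 10.3% between the controls. Among loci with a mean of at least 10 RPM the shares without overlap were 13.6% higher and 11.6% lower in G9a cKO. They were 27.5% higher and 21.2% lower in cDKO, and 18.9% higher and 18% lower between the controls.

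**Figure D3:**
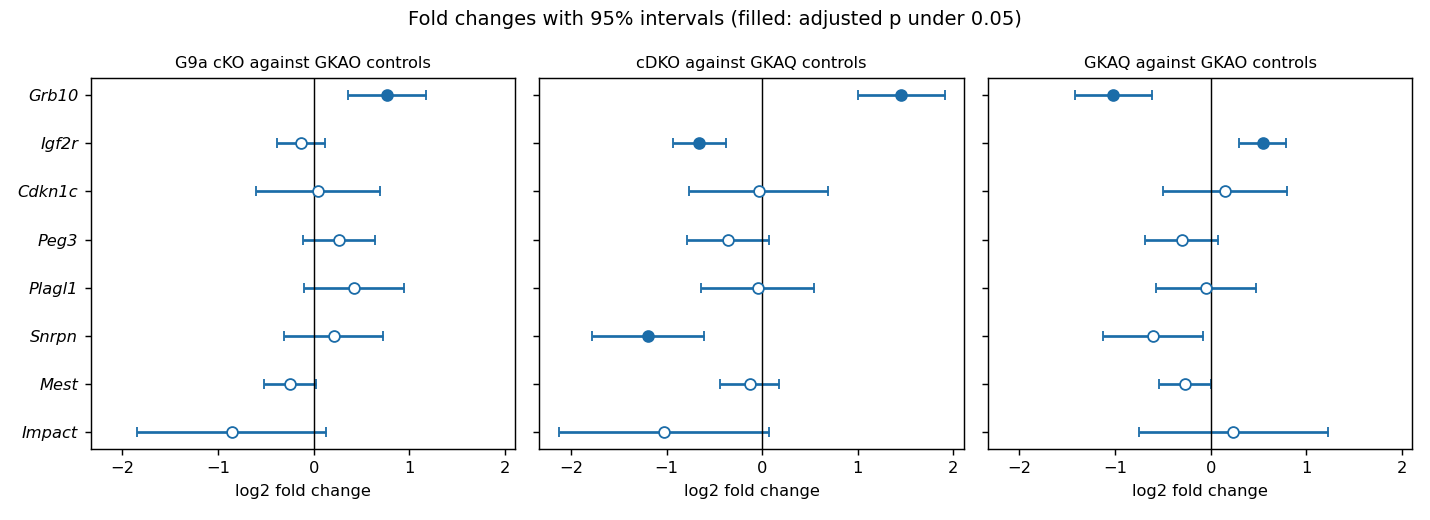
Log2 fold change (points) with its 95% interval (bars) for 8 genes in 3 comparisons, filled where the adjusted p was under 0.05. Grb10 is at 1.45 and Igf2r at −0.66 in cDKO against GKAQ controls, and at −1.02 and 0.54 in the comparison of the 2 control sets.

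The genes whose levels followed those of the 3 changed genes most closely were named as a description, from 6939 gene-named loci with a mean of at least 10 RPM and over 11 libraries that share their group and depth. For Grb10 they were Gbx2 (Pearson r 0.982), Chmp7 (0.951) and Mcm10 (0.940). Igf2r was most like Vps13a (0.927), Spry4 (0.926) and Lmo7 (0.920), and Snrpn was most like Epb4.1l3 (0.964), Iqsec1 (0.957) and AU040320 (0.944).

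Among 53 other imprinted genes, 43 had a locus, 11 of them by position, and 15 had a mean of at least 10 RPM. In G9a cKO 3 of the 43 passed the threshold, beside 1.79% of all loci, and in cDKO 7 did, 4 higher and 3 lower, beside 6.34% of all loci. In the fit of only loci with a mean of at least 1 RPM, a level that 31 of the 43 reach, the shares were 4.45% and 14.8%. The median log2 difference over the list was 0.00 in G9a cKO. In cDKO it was 0.20, which is the value that loci without a read take there and also the median of all loci. Cobl, which encodes an actin nucleator and neighbours Grb10 on chromosome 11, rose in both mutants. It had 47.5 to 58.9 RPM in GKAO controls and 83.8 to 121 in G9a cKO (log2 0.83, SE 0.16, adjusted p = 5.38e-05), and 52.2 to 64.2 RPM in GKAQ controls and 140 to 141 in cDKO (log2 1.26, SE 0.18, adjusted p = 3.85e-10). The mutant libraries did not overlap with their controls, and, unlike Grb10, Cobl had log2 0.11 between the control sets (adjusted p = 0.648) without a call. Its call was lost in G9a cKO under log2(RPM + 1) and without trend and robust moderation (adjusted p up to 0.109) and in none of 20 alternatives in cDKO. With the library labelled G9a cKO replicate 2 left out, its log2 difference was 0.89. Ddc, the neighbour on the other side of Grb10, had at most 3 reads in any library.

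The other calls of the list were smaller or rested on fewer reads. In G9a cKO, Inpp5f, an inositol phosphatase, fell (log2 −0.94, SE 0.21, adjusted p = 0.00163), a call lost in 4 of 20 alternatives (adjusted p up to 0.186), among them the fit without GKAO control replicate 1 (0.114), while leaving out the library labelled G9a cKO replicate 2 gave log2 −0.87 (0.0255). Gnas, the stimulatory G protein subunit, rose there by log2 0.36 (adjusted p = 0.0392), a call lost in 11 of 20 alternatives, including the fit without that library (0.128). In cDKO, Ampd3, an AMP deaminase, fell (log2 −0.54, adjusted p = 0.00506), while Asb4, a ubiquitin ligase adaptor, rose 2.56-fold (adjusted p = 0.0125) and Osbpl5, a lipid transfer protein, rose 2.82-fold (adjusted p = 0.0209). Rasgrf1, an activator of Ras, had at most 1 read in each cDKO library and passed at an adjusted p of 0.0344. Each of these 4 calls was lost in 3 to 11 of 20 alternatives, in each case also without cDKO replicate 2. The remaining calls in cDKO, named after their values were seen, were Usp29, which neighbours Peg3 (33.3 to 51.3 RPM in controls, 20.5 and 33.2 in cDKO, adjusted p = 0.0483), and Slc22a18, with at most 4 reads in any library. In the other mutant, without a call, Ampd3 (log2 −0.41 in G9a cKO, adjusted p = 0.0654) and Inpp5f (−0.51 in cDKO, 0.238) were also lower. Osbpl5 (0.91), Asb4 (0.33) and Slc22a18 (0.11) were also higher in G9a cKO, and Gnas (0.15) in cDKO. Rasgrf1 (0.76) and Usp29 (0.33) had the opposite sign in G9a cKO. Between the control sets Gnas (log2 0.57), Ube3a (0.53) and H13 (0.37) were higher in GKAQ, at adjusted p-values of 8.48e-06, 0.0122 and 0.0178.

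The factors that set and keep imprints were read from 2 further lists. Of 4 setting factors, Dnmt3a, the de novo DNA methyltransferase of the oocyte, fell in cDKO from 415 to 492 RPM in controls to 311 and 324 RPM (log2 −0.53, SE 0.09, adjusted p = 1.71e-06), and none of the 4 passed in G9a cKO. Setd2, which places the histone mark that guides this methylation, was higher in GKAQ than in GKAO controls (log2 0.49, adjusted p = 1e-06). Of 7 keeping factors, Dnmt1, the maintenance DNA methyltransferase, fell in cDKO from 8857 to 9243 RPM to 5836 and 6202 RPM (log2 −0.58, SE 0.03, adjusted p = 3.57e-86) and had a log2 difference of 0.00 in G9a cKO (SE 0.03). The difference between these effects passed the threshold (log2 −0.58, adjusted p = 6.14e-47), and was lost in 1 of 17 alternatives, without trend and robust moderation (0.232). Dppa3, which protects maternal methylation after fertilisation, fell in both mutants, by log2 −0.36 in G9a cKO (adjusted p = 8.38e-05) and −0.41 in cDKO (adjusted p = 1.51e-05). The call in G9a cKO was lost in 4 of 20 alternatives (adjusted p up to 0.401), with a log2 difference of −0.88 against the 6 pooled controls (0.34), and leaving out the library labelled G9a cKO replicate 2 gave −0.36 (0.00162). Dppa3 was also 2.06-fold higher in GKAQ than in GKAO controls, and against the GKAO controls the cDKO value was higher (log2 0.63, adjusted p = 2.05e-13), so its direction in cDKO depends on the control set. Without cDKO replicate 1 its log2 difference in cDKO was −0.15 (adjusted p = 0.638). Without trend and robust moderation the calls of Dnmt3a, Dnmt1 and Dppa3 in the mutants were lost, with an adjusted p of 0.0604 for Dnmt1 in cDKO.

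H3K9me2 over the loci was counted in windows of 10 kb and scaled to each library's total, so that it shows how the mark's reads are distributed and not its amount. Per window, the controls had 3.71 and 3.50 RPM over Peg3, against 9.24 and 8.87 with G9a deleted and 5.61 and 6.02 with both genes deleted. Over Grb10 the controls had 3.50 and 3.48 RPM, the G9a cKO libraries 5.83 and 6.72 and the cDKO libraries 5.17 and 4.78. Both mutants were above the controls at these loci, Peg3 most in G9a cKO. Over Snrpn the controls had 3.16 and 3.21 RPM, the G9a cKO libraries 5.38 and 3.71 and the cDKO libraries 4.37 and 3.31, so the margin over the controls was small in 1 library of each mutant. Both G9a cKO libraries lay above both controls at 5 of the 7 loci (Grb10, Igf2r, Peg3, Plagl1 and Snrpn), as at 31.7% of all 14966 gene-named loci, and both cDKO libraries did so at all 7, as at 41.6%. None of the 7 lay below both controls in either mutant, as did 28% of loci in G9a cKO and 18.5% in cDKO. The loci matched by position, Impact and Nnat, also lay above both controls in both mutants, beside the same 31.7% and 41.6% of gene-named loci. Nnat, with 1 window, had 3.26 and 3.92 RPM in controls and 9.15 and 9.92 in G9a cKO, from 17 and 11 reads. In cDKO it had 4.64 and 4.78 RPM. Both mutants are set against the same 2 controls. The mutant libraries had 1109191 to 1881848 reads and the controls 7048784 and 19128881, the counts behind a locus were as low as 6 reads (Cdkn1c and Mest, G9a cKO replicate 2), and the part of depth in these values was not tested.

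**Figure D4:**
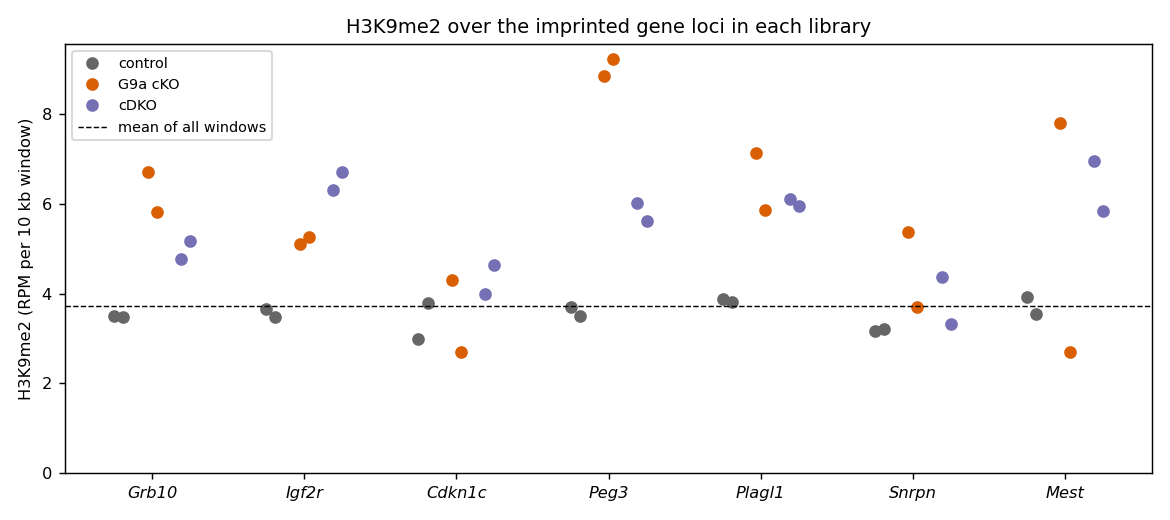
H3K9me2 reads over 7 imprinted gene loci, in RPM per 10 kb window, with 1 point per library and the mean of all windows as a dashed line. Control points lie between 2.98 and 3.92 RPM, and the Peg3 points of G9a cKO reach 8.87 and 9.24 RPM.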

How the data were processed

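RNA and H3K9me2 were read from 2 deposited tables of log2 values with 1 column per library, in which replicates were not pooled. Neither the headers nor the labels state the unit. From the values, the authors deposited log2 RPM, with an empty feature at 0.9 read: all values gave whole reads within 0.01 of a read, except in 1 RNA library with 99.9952%. Per the submitters' processing notes, Trim Galore, Bowtie2, HISAT2 2.1.0, Bismark 0.19.0 and GRCm38 were used. The counting method, strand use and filters are not given in the sources used here. Of the H3K9me2 columns, 4 match no sample and were left out. Bisulphite, input and IgG libraries were not analysed here.

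All 38540 loci were fitted with limma 3.58.1 in R 4.3.3 on the deposited log2 values (a mean per group, 11 libraries, trend and robust moderation, no pseudocount, two-sided, Benjamini-Hochberg adjustment, threshold 0.05), after a check on simulated data. Genes whose name no locus carried were matched by position where locus and RefSeq gene overlapped by at least 0.5 of each on 1 strand. Every gene of the set was named, with up to 5 called genes per further list and the 3 most similar loci per changed gene. Genes, lists and rules were chosen with earlier results of these data known. H3K9me2 was summed over windows touching a locus and not tested. Alternatives covered scaling, low values, pseudocount 1, precision weights (voom on the recovered reads), moderation, controls, and leaving out each library. Tables were handled with pandas 2.3.3 under Python 3.11.15 and plotted with matplotlib 3.10.9.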

Additional observations from a re-analysis of the deposited data

Results flagged for a closer look

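The effect on Snrpn differed between the mutants, with a log2 difference of −1.40 between cDKO and G9a cKO (SE 0.40, adjusted p = 0.0456 in limma, lost in 11 of 17 alternatives): both cDKO libraries fell below all controls and the 3 G9a cKO libraries overlapped with theirs. The effect on Dnmt1 also differed between the mutants, by −0.58 on the log2 scale (SE 0.04, adjusted p = 6.14e-47, lost in 1 of 17 alternatives), with both cDKO libraries below their controls and the G9a cKO libraries within the range of theirs.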

How the results depend on the processing

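Of 934 recomputed fold changes of the named genes, 800 kept direction and side of the threshold, 103 lost it, 4 gained it and 27 changed sign. The number of the 7 genes called in G9a cKO was 0 under log2(RPM + 1), under precision weights and without trend and robust moderation, and 0 to 1 over fits leaving out a library. For the difference between effects it was 0 under the same 3 settings and 0 to 3 without a library; the 3 came without GKAQ control replicate 1, where 14705 loci were called, 8635 of them without a read in any library. Between the control sets it was 0 under the same 3 settings. In cDKO it was 2 to 3 throughout, but not always with the same genes. Against the GKAO controls Peg3 and Snrpn passed, while Grb10 and Igf2r did not. Without H3K9me2 G9a cKO replicate 1, 2 loci (Cdkn1c and Mest) were lower in G9a cKO, and the range over these fits was 0 to 2; the cause was not tested.

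Most signs that changed were of values near 0. Leaving out libraries, the log2 difference in G9a cKO ranged from −0.30 to 0.047 for Igf2r and −0.12 to 0.13 for Cdkn1c, and that in cDKO from −0.26 to 0.18 for Cdkn1c and −0.085 to 0.024 for Plagl1. The difference of effects ranged from −0.31 to 0.13 for Cdkn1c and −1.08 to 0.74 for Impact, and the control difference from −0.0080 to 0.37 for Cdkn1c, −0.13 to 0.088 for Plagl1 and −0.0073 to 0.55 for Impact. With 6 controls pooled, Cdkn1c stood at −0.029 in G9a cKO and 0.039 in cDKO, and Dppa3 at 0.11 in cDKO. Against the GKAO controls Cdkn1c was 0.12 and Dppa3 0.63 in cDKO, and precision weights gave 0.0073 for Cdkn1c.

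Title numbers repeat across groups. The deviations of same-numbered G9a cKO and GKAO control libraries correlated at 0.01 to 0.11, and those of differently numbered ones at −0.12 to 0.0027. Every same-numbered pair thus lay above every differently numbered one, though the values were small and the gap narrow. Pairing by number is neither shown nor excluded, and it was kept out of the reported fit. With the replicate block of this number, 1 of the 7 genes was called in G9a cKO (Grb10, log2 0.90, adjusted p = 0.00137), 557 loci in all against 689, and Igf2r was 0.0052. The 5 GKAQ libraries alone leave this block no residual degrees of freedom. A replicate block over all 11 libraries, added after the data were seen, has 3, and its cDKO effect comes from the single pair numbered 55: Grb10 (log2 1.28, adjusted p = 0.0253) and Igf2r (−0.79, 0.0152) were called in cDKO and Snrpn (−1.31, 0.139) was not, 0 of the 7 genes were called for the difference, and the sign changed for Cdkn1c (0.62 in cDKO and 0.62 for the difference), Plagl1 (0.0033 in cDKO) and Mest (−0.087 for the difference). In it 805 loci were called with G9a deleted, 972 with both genes deleted and 543 for the difference, and the calls in cDKO of Asb4, Osbpl5, Rasgrf1, Dnmt3a (adjusted p = 0.0707) and Dppa3 were lost. Counts over all loci moved by over 1.5 times under several settings. From 689 in G9a cKO they moved to 34 under log2(RPM + 1), 441 with precision weights, 179 without trend and robust moderation, 1197 with pooled controls and 379 without G9a cKO replicate 2. From 2444 in cDKO they moved to 1158 under log2(RPM + 1), 1154 without trend and robust moderation and 1562 without cDKO replicate 1. For the difference (417) they were 102, 194 and 82 under the 3 settings named first and 277 without GKAQ control replicate 3. Between the controls they were 1490 loci (3.87%), 421 under the first of those settings (1.09%) and 0.283% of loci under the last. Summing several loci of a gene was not run, since each gene had 1. At 3 to 30 reads, Cdkn1c and Impact allow only wide intervals.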
